A study of Homo sapiens with 12 samples.

Results

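Cytosolic ribosomal protein genes encode the proteins of the 80S ribosome's large and small subunits. Genes were taken when their symbol had the form RPL or RPS followed by a number, with an optional A or X, or was RPLP0, RPLP1, RPLP2 or RPSA, and when they reached a mean of 10 counts over the 12 libraries. This gave 77 of the 62700 rows of the table, 46 of the large and 31 of the small subunit, and all 77 were among the 18049 genes tested. The rule uses symbols and mean counts and no difference between groups, but it was set with earlier results of these data known. The symbols of FAU and RACK1, which also encode ribosomal proteins, and those of the paralogues ending in L, such as RPS27L, do not have this form, and their values are given apart.

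Poly(A) RNA was sequenced from HCT116 TIM-mAID cells, a human colorectal cancer line in which both the treated and the untreated cells carry a mini auxin-inducible degron tag knocked in by CRISPR at TIMELESS, a protein that stabilises replication forks. The 4 groups of 3 biological replicates were all taken at 40 h. They received DMSO alone, 5-Ph-IAA (an auxin analogue that sends degron-tagged proteins to the proteasome) at 1 µM, ceralasertib (ATRi, an inhibitor of the checkpoint kinase ATR) at 1 µM, or both compounds at these doses (5-Ph-IAA/ATRi, called the combination here). The labels number the replicates as sets 1 to 3, and do not say whether the line is 1 clone. There was no untagged line and no check of the degraded protein among these libraries, so an effect of 5-Ph-IAA apart from the loss of TIMELESS cannot be told apart from it.

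Ribosomal protein mRNAs are among the most abundant in growing cells, and most start with a run of pyrimidines, the 5′ terminal oligopyrimidine (TOP) motif, through which the kinase mTORC1 and the RNA-binding protein LARP1 control how well they are translated. The proteins are made in matched amounts, and those left over are degraded. Free RPL5 and RPL11, bound to 5S rRNA, inhibit MDM2, the ubiquitin ligase of p53, so the family also has a place in the p53 response.

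The start sites show a pyrimidine run that most of these genes share, whereas the paralogue RPS27L has only a short run. A relation of run length to change between groups was not tested. RefSeq promoter sequences (GRCh38.p14) matched 62 of the 77 genes by symbol. Below, each window runs from 20 bases before the RefSeq start site to the first 20 transcribed bases, on the gene's own strand and 5′ to 3′, and capitals mark the longest run of C and T that touches the 5 bases on either side of the start. RPS27 and RPL22 are set beside their paralogues RPS27L and RPL22L1, RPSA, RPL21 and RPS7 are the genes that single fits called, and RPL7A and RPL4 have the longest and a shortest run.
RPS27: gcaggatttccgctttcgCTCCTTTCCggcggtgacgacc
RPS27L: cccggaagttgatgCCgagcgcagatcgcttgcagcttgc
RPL22: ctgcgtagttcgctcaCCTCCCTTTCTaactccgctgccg
RPL22L1: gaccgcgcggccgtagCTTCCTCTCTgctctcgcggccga
RPSA: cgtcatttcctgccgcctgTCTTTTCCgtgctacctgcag
RPL21: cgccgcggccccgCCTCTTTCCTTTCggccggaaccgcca
RPS7: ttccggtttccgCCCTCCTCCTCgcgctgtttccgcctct
RPL7A: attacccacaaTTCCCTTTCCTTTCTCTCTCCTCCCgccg
RPL4: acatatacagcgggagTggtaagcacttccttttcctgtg
These windows lie at chr1:153990742-153990781 (plus strand), chr15:63157458-63157497 (minus), chr1:6199576-6199615 (minus), chr3:170870176-170870215 (minus), chr3:39406700-39406739 (plus), chr13:27251538-27251577 (plus), chr2:3575240-3575279 (plus), chr9:133348198-133348237 (plus) and chr15:66504836-66504875 (minus).

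A run of 8 or more pyrimidines was present in 45 of the 62 windows (72.6%), against 11.2% of the 35116 promoters of the table searched the same way. The median run was 11 bases for the ribosomal protein genes and 4 for all promoters. It ranged from 1 base, in RPL4, to 25 bases in RPL7A. RPS27 had a run of 9 and RPS27L a run of 2, while RPL22 and RPL22L1 had runs of 11 and 10. The letters TATAA, read on the gene's strand between 40 and 20 bases before the start, were in 9.68% of the members' promoters and 3.77% of all promoters. RefSeq gives 1 start per entry, so a short run such as that of RPL4 says only that these letters are not at the annotated start.

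The genes lay on 21 chromosomes, with 12 on chromosome 19 and 4 on X. Their coding sequences were short, with a median of 456 nt (75 nt in RPL41 to 1281 nt in RPL4) against 1275 nt over all protein-coding genes. A small nucleolar RNA gene lay inside 28 of the 77 (36.4%), against 1.28% of 19940 protein-coding genes. Intronic snoRNAs of this kind guide rRNA modification. Processed pseudogenes are many, with 1589 rows of the table named after the 77 genes. They drew a median of 0.222% of the reads of gene and pseudogenes together. Over 5% went to pseudogene rows for RPS2 (10.6%), RPL22 (8.23%) and RPL23A (6.76%), whose values are the least certain for this reason.

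The libraries held 27695914 to 34704725 counts. Mitochondrial transcripts took 6.63 to 14.9% of them, and this share and the nuclear RNA MALAT1 varied as much within groups as between them. Replicates differed far beyond sampling noise, so none was a second copy of another. TIMELESS RNA, which does not check the labels since the compound acts on the protein, was measured at 52.2, 30.5 and 67.9 CPM in DMSO, 39.5, 41.4 and 63 CPM in 5-Ph-IAA, 30.3, 32.3 and 46.9 CPM in ATRi and 17.6, 24.5 and 24.5 CPM in the combination (CPM, counts scaled to a common library size by the TMM method, in the order of sets 1, 2 and 3). It fell in the combination (-1.18 ± 0.30 log2 against DMSO, edgeR adjusted p = 0.0233), a call that, of 6 fits leaving out 1 library of either group, was kept only without DMSO 2 (adjusted p up to 0.0989 in the others). Of 7 epithelial markers, EPCAM, KRT8, KRT18, KRT19 and CDH1 were at 61.1 CPM (before TMM scaling) or more in every library, whereas the intestinal genes CDX1 and VIL1 stayed below 1 CPM. The 7 summed to 4412 to 6039 CPM in DMSO, 4831 to 6406 CPM in 5-Ph-IAA, 5823 to 6269 CPM in ATRi and 9874 to 11295 CPM in the combination, where the keratins KRT8, KRT18 and KRT19, 3 of the 5 tested, rose against DMSO, where 6.24% of all genes rose. The KRT8 call was kept without each library, that of KRT19 was lost without DMSO 1 (adjusted p = 0.0547), and that of KRT18 was kept only without DMSO 2 (adjusted p up to 0.094 in the others). The 9 markers of blood, endothelial, fibroblast and liver cells summed to 37.5 to 103 CPM over the 12 libraries, of which COL1A1 made 36.2 to 100.3 CPM, and CD3E, PTPRC and DCN were at 0.18 CPM or less.

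Together the 77 genes took a similar share of all counts in every group. In sets 1, 2 and 3 their share was 7.98, 9.22 and 6.63% in DMSO, 8.73, 9.10 and 6.37% in 5-Ph-IAA, 9.25, 8.11 and 7.52% in ATRi, and 7.87, 9.46 and 6.87% in the combination. The 4 groups overlapped almost completely, and set 3 was the lowest library in each of them. The group means were 7.94 ± 1.30% (SD, n = 3) in DMSO, 8.06 ± 1.48% in 5-Ph-IAA, 8.29 ± 0.88% in ATRi and 8.06 ± 1.31% in the combination. The SD inside a group, 0.88 to 1.48 percentage points, was larger than any gap between group means. In bulk RNA a share does not give RNA per cell, and fewer cells or less RNA per cell cannot be told apart. The ratio of large- to small-subunit counts was 1.60 ± 0.04 in DMSO, 1.58 ± 0.02 in 5-Ph-IAA, 1.56 ± 0.02 in ATRi and 1.58 ± 0.01 in the combination.

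**Figure D1:**
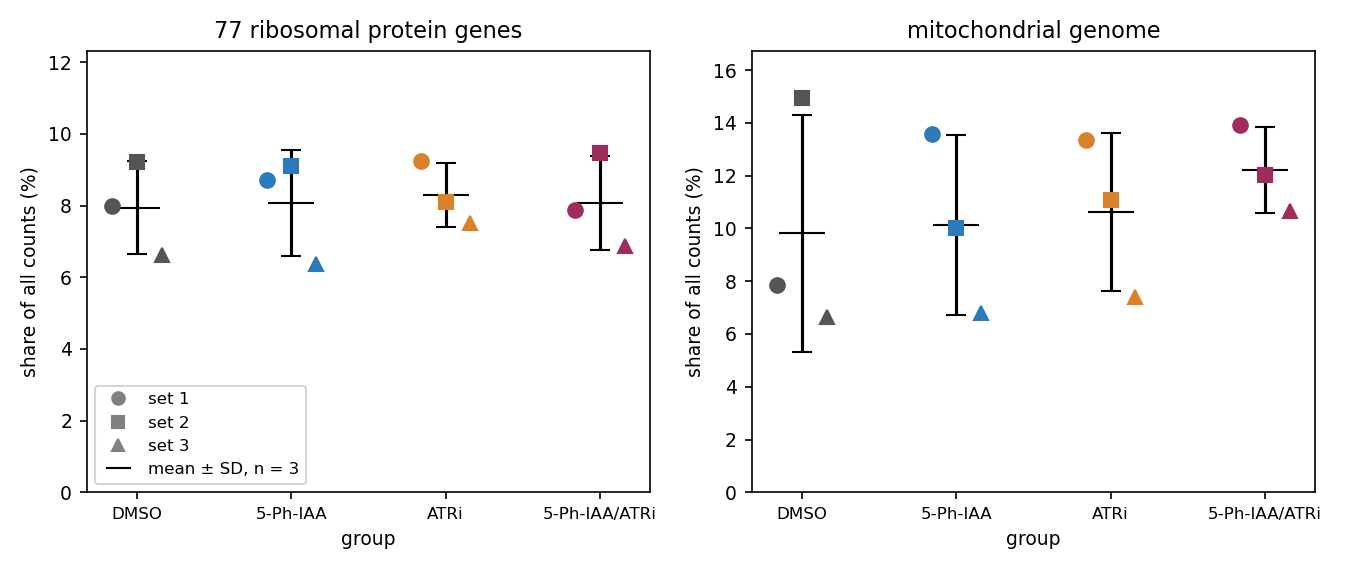
Share of all counts (%) taken by the 77 ribosomal protein genes (left) and by the mitochondrial genome (right) in each of the 12 libraries, by group, with symbols for sets 1 to 3 and the mean ± SD (n = 3) as lines. The ribosomal protein share runs from 6.37 to 9.46%, the groups overlap, and set 3 is lowest in each group.

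Apart from RPL41, the level per kilobase of coding sequence ran from 1001 CPM per coding kb for RPS9, which lines the mRNA entry channel, to 4529 for RPS18 of the small-subunit head, with RPL7A in the middle at 1998. RPL41 stood outside at 14382 CPM per coding kb. Its coding sequence is only 75 nt, and untranslated regions, which also yield reads, are not in this length. Without division by length, the 12-library means of TMM-scaled CPM ran from 260.0 for RPS29 to 2836 for RPL4.

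No ribosomal protein gene changed in any of the 6 comparisons by edgeR's quasi-likelihood test at an adjusted p of 0.05. For 5-Ph-IAA against DMSO 0 of 77 passed, where 0.00554% of all genes did, and for ATRi against DMSO 0 of 77, where 0.0665% did. Both single treatments thus had almost no calls anywhere in the table. For the combination the backgrounds were wider: 0 of 77 against DMSO, where 13.1% of all genes were called, 0 of 77 against 5-Ph-IAA, where 9.41% were called (19.6% with the set number as a block, again with 0 of 77), and 0 of 77 against ATRi, where 3.51% were called. The interaction, a test of whether both compounds together differ from adding up the log2 effects of each, called 0 of 77 and 0.0776% of all genes.

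At an unadjusted p below 0.05, edgeR and limma-voom each gave 0, 0, 0, 1, 1 and 1 of the 77 genes in these 6 comparisons, in the order given. Of all 18049 genes tested, edgeR gave 239, 877, 4839, 4073, 2982 and 1317 below this p, in the same order. DESeq2 gave 0, 0, 2, 1, 1 and 1. By adjusted p, limma-voom called none, and DESeq2 called RPSA alone, in the combination against 5-Ph-IAA and against ATRi. The shares of all genes called that are given here are from edgeR, so the DESeq2 calls have no background of their own beside them. Of the 77, the gene at p below 0.05 in edgeR was RPSA each time.

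The median log2 change of the 77 genes was 0.01 in 5-Ph-IAA, 0.07 in ATRi and 0.04 in the combination, each against DMSO, beside -0.01, -0.02 and -0.02 over all genes tested. In the combination, single genes ran from -0.19 to 0.42, and the interquartile range of all genes from -0.35 to 0.27. Against 5-Ph-IAA and ATRi the median in the combination was 0.04 and -0.01, and the interaction median was -0.02. The medians are small beside the spread of the library means of the 77 genes inside groups, an SD of 0.27 log2. Leaving out DMSO 2 moved the combination median to 0.24, and leaving out DMSO 3 moved it to -0.09, so its sign rested on single control libraries.

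The data bound the changes more tightly than a missed threshold does. The 95% interval of the log2 change lay inside a 2-fold change either way for 77 of 77 genes in 5-Ph-IAA and in ATRi, and for 76 in the combination, each against DMSO. The exception was RPS19, whose upper bound was 1.05 log2. It lay inside 2-fold for all 77 in the combination against each single treatment, and for 65 in the interaction. It lay inside a 1.5-fold change for 45, 43 and 37 genes against DMSO. For the remaining genes a change of that size lay within the interval.

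**Figure D2:**
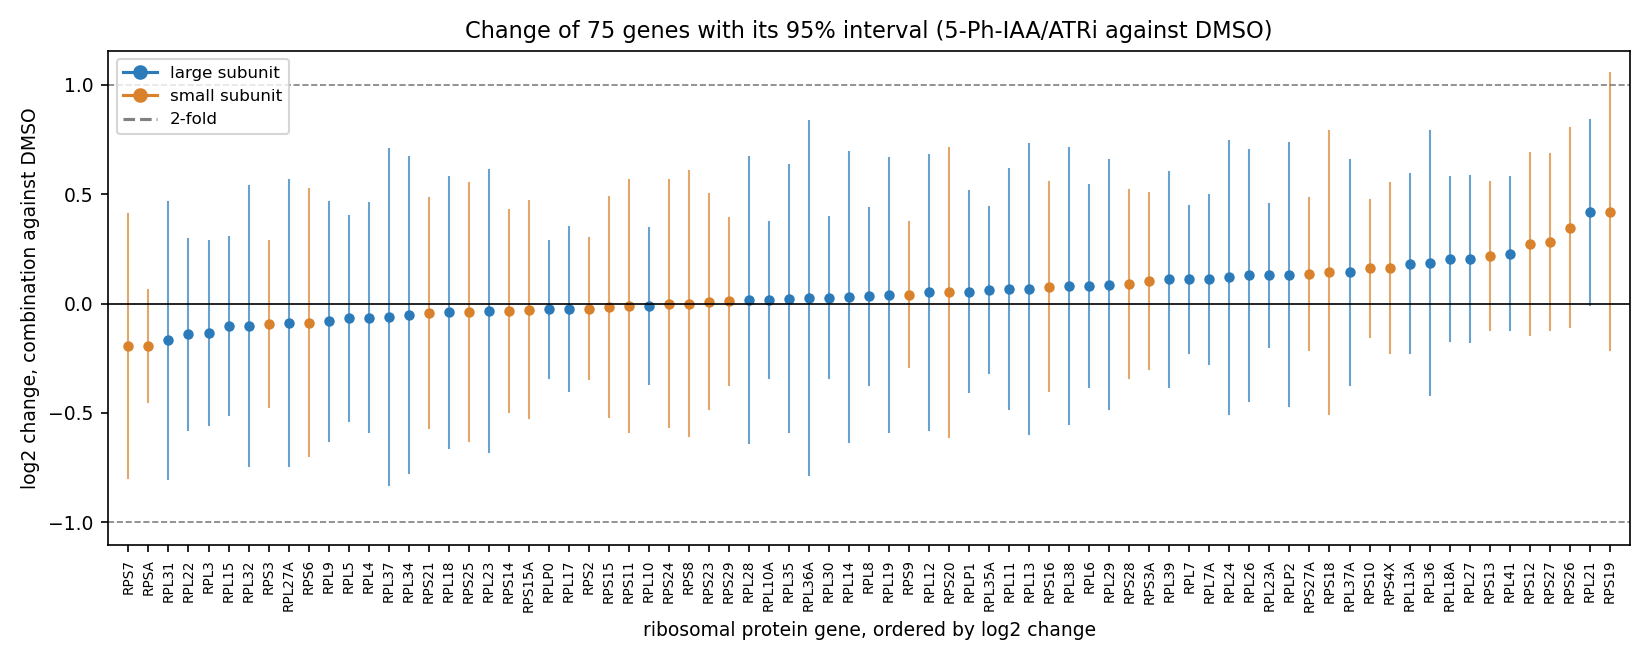
Log2 change of 75 of the 77 genes in the combination against DMSO (points, coloured by subunit) with its 95% interval from the edgeR fit (bars), ordered by size, with broken lines at a 2-fold change. All points lie between -0.19 and 0.42, and only the bar of RPS19 passes a 2-fold line.

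The level of these genes varied from library to library as a block. The median SD within groups was 0.28 log2, from 0.08 for RPSA to 0.52 for RPL36A, beside 0.24 for 437 other genes at least as abundant as the lowest of the 77. Taken relative to the mean of the 77 genes in the same library, the median SD fell to 0.12. A single component held 91.0% of their variance within groups, and the median correlation between pairs of genes was 0.92 over 12 libraries that share their normalisation (a description, without a test). Neither value was taken for other genes, so they are not shown to be particular to this family. The lowest library was 5-Ph-IAA 3 for 58 genes, and the highest was DMSO 2 for 31 and combination 2 for 26.

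Both extremes of the control group show how wide this was. DMSO 2 exceeded DMSO 3 for 73 of the 77 genes, by a median of 1.53-fold and up to 2.62-fold for RPL36A. RPL21, RPSA and RPLP0 were among the exceptions. For 71 genes the range of the 3 DMSO libraries was larger than every change against DMSO. A range of 3 single libraries tends to exceed a difference between means of 3 even without any change. The same count over all genes was not taken, so the 71 only describes the spread. Mitochondrial transcripts took 14.9% of the counts in DMSO 2 and 6.63% in DMSO 3, and the part of this difference in the ribosomal protein levels was not tested. Shorter coding sequences went with a larger SD (Spearman's rho -0.30 across the 77 genes, which are not independent), a relation absent from the relative levels (rho -0.02).

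**Figure D3:**
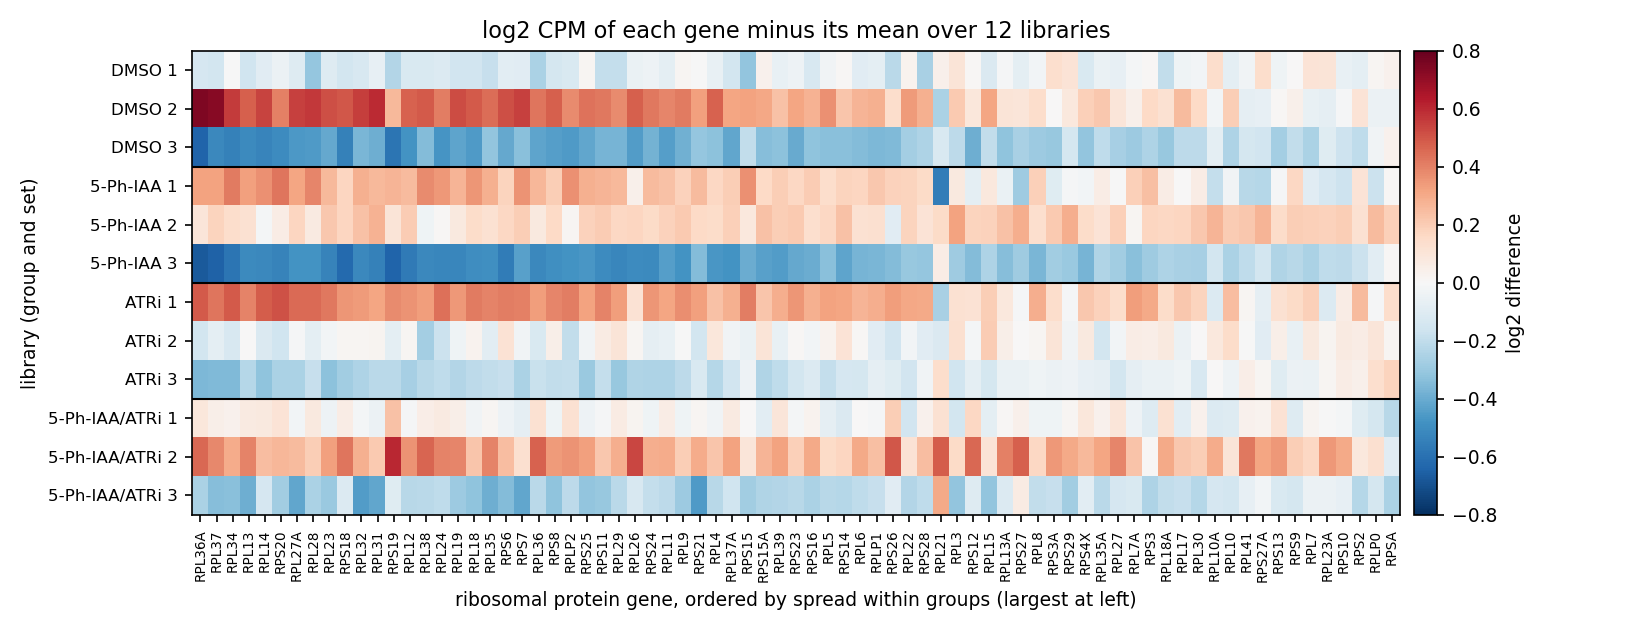
Log2 CPM of 75 of the 77 ribosomal protein genes minus its mean over the 12 libraries (colour), with libraries in rows by group and set, and genes in columns from the largest spread within groups (RPL36A, left) to the smallest (RPSA, right). Rows are nearly uniform in colour: DMSO 2 is high and DMSO 3 and 5-Ph-IAA 3 are low across most genes, and no group of 3 rows stands apart.

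Values below are CPM scaled by TMM, in the order of sets 1, 2 and 3, and changes are log2 ± SE against DMSO with Benjamini-Hochberg adjusted p from edgeR unless another comparison is named. Among the MDM2-binding proteins, RPL5, which carries 5S rRNA, was measured at 1302, 1716 and 1055 CPM in DMSO, 1462, 1491 and 1054 CPM in 5-Ph-IAA, 1664, 1354 and 1166 CPM in ATRi and 1267, 1480.2 and 1141 CPM in the combination. RPL11, its partner in that particle, was measured at 926, 1283 and 723 CPM in DMSO, 1154, 1111 and 723 CPM in 5-Ph-IAA, 1217, 939 and 825 CPM in ATRi and 1019, 1203 and 847 CPM in the combination. RPL23, which also binds MDM2, was measured at 771, 1184 and 623 CPM in DMSO, 992, 959.8 and 572 CPM in 5-Ph-IAA, 1107, 816 and 658 CPM in ATRi and 803, 1038 and 674 CPM in the combination. In all 3 genes set 3 was the lowest library of every group, and the 4 groups overlapped. In the combination the changes were -0.07 ± 0.21 for RPL5 (95% interval -0.53 to 0.40), 0.07 ± 0.25 for RPL11 (-0.48 to 0.62) and -0.04 ± 0.29 for RPL23 (-0.68 to 0.61), with adjusted p of 0.888 to 0.96. In the same libraries the p53 targets rose. CDKN1A, the cyclin-dependent kinase inhibitor p21, was measured at 231, 189 and 234 CPM in DMSO, 341, 478 and 487 CPM in 5-Ph-IAA, 596, 834 and 842 CPM in ATRi and 2027, 2112 and 2048 CPM in the combination, and MDM2 at 142, 110.1 and 155 CPM in DMSO, 138, 161 and 227 CPM in 5-Ph-IAA, 234, 336 and 319 CPM in ATRi and 490.4, 573 and 620.1 CPM in the combination. The combination stood above all other libraries for both, by 3.24 ± 0.19 (adjusted p = 6.23e-06) and 2.05 ± 0.22 (adjusted p = 0.000213).

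The stalk proteins draw elongation factors to the ribosome. RPLP0, the base of the stalk, was measured at 2596, 2479 and 2509 CPM in DMSO, 2275, 3057 and 2416 CPM in 5-Ph-IAA, 2544, 2743 and 2819.8 CPM in ATRi and 2324, 2797 and 2325 CPM in the combination, and it was among the steadiest genes within groups. RPLP1 was measured at 1189, 1529 and 979 CPM in DMSO, 1457, 1370.1 and 975 CPM in 5-Ph-IAA, 1538, 1179.5 and 1196 CPM in ATRi and 1250.1, 1484 and 1106 CPM in the combination. RPLP2, which pairs with RPLP1, was measured at 675, 956 and 536 CPM in DMSO, 945, 741 and 528 CPM in 5-Ph-IAA, 976, 639 and 644 CPM in ATRi and 800.03, 940.4 and 636 CPM in the combination. The groups overlapped for all 3, and RPLP1 and RPLP2 were high in DMSO 2 and low in DMSO 3 while RPLP0 was not. With RPL12, which joins the stalk to the rRNA, the 4 stalk genes had changes of -0.03 to 0.13 in the combination (median 0.05), of which 0 passed.

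Around the catalytic centre, RPL3, RPL8 and RPL10 had a median change of -0.01 (-0.14 to 0.03). RPL10, which reaches toward the P site, was measured at 1089, 1315 and 966 CPM in DMSO, 1127, 1321 and 964 CPM in 5-Ph-IAA, 1361, 1270.2 and 1117 CPM in ATRi and 1071, 1236 and 1039 CPM in the combination, with overlapping groups and a change of -0.01 ± 0.16. RPL3, whose tip lies near the peptidyl transferase centre, was measured at 2640.3, 2850.2 and 2132 CPM in DMSO, 2595, 3081 and 2024 CPM in 5-Ph-IAA, 2681, 2694 and 2204 CPM in ATRi and 2222, 2740.4 and 1976 CPM in the combination, and its change was -0.14 ± 0.19 (adjusted p = 0.716). RPL36A, which lies near the tRNA end at the exit site, was measured at 331, 609 and 233 CPM in DMSO, 454, 389 and 228 CPM in 5-Ph-IAA, 509.8, 328 and 282 CPM in ATRi and 386, 500.2 and 305 CPM in the combination. It had the widest spread within groups of the 77 genes, and its change of 0.02 ± 0.37 had a 95% interval of -0.78 to 0.83.

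The 8 genes at the peptide exit tunnel, where the growing chain leaves the large subunit, ran from -0.17 to 0.13 with a median of 0.03. RPL31, at its outer rim, was lowest of them, at 730.2, 1156 and 582 CPM in DMSO, 917, 927 and 526 CPM in 5-Ph-IAA, 952, 778 and 659 CPM in ATRi and 742, 883 and 574 CPM in the combination, with a change of -0.17 ± 0.29. Of the other large-subunit proteins among the 6 lowest, RPL15 was measured at 1247, 1677 and 1178 CPM in DMSO, 1432, 1536 and 1136 CPM in 5-Ph-IAA, 1548, 1555 and 1222 CPM in ATRi and 1278, 1455 and 1087 CPM in the combination (-0.10 ± 0.19). The groups overlapped for both, and set 3 was the lowest library of each group.

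RPL22, a large-subunit protein that translation can do without, was measured at 622, 771 and 504 CPM in DMSO, 687, 688 and 493 CPM in 5-Ph-IAA, 754, 599 and 547 CPM in ATRi and 547, 658 and 517 CPM in the combination. Its change was -0.14 ± 0.20 (adjusted p = 0.718), and the groups overlapped. Relative to the mean of the 77 genes it lay lower in the combination (-0.73, -0.74 and -0.60 log2) than in DMSO (-0.47, -0.51 and -0.51), with no overlap. On this relative scale 16 of the 77 genes (20.8%) had groups that did not overlap, 8 higher and 8 lower, where 22.2% of all genes on the same scale did, so the share was near the background. Against 5-Ph-IAA 5 were higher and 6 lower (19.4% of all genes did not overlap), and against ATRi 5 were higher and 7 lower (18.2% of all genes). ATRi against DMSO gave 2 higher and 1 lower (8.19% of all genes), and 5-Ph-IAA against DMSO gave 0 (2.85% of all genes). RPL22 was among the lower genes each time except in 5-Ph-IAA against DMSO. RPL22 also loses the second-largest share of reads to pseudogene rows.

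RPL21, a large-subunit protein, had the highest change of the large subunit. It was measured at 647, 528 and 577 CPM in DMSO, 428, 700.03 and 655 CPM in 5-Ph-IAA, 525, 579 and 693 CPM in ATRi and 684, 879.9 and 775 CPM in the combination. The combination lay above DMSO in every library but overlapped both single treatments, and the spread among the controls ran against the rest of the family, with DMSO 2 lowest. The change was 0.42 ± 0.19 (95% interval -0.00 to 0.84, adjusted p = 0.191), 0.39 ± 0.19 against 5-Ph-IAA (adjusted p = 0.258) and 0.38 ± 0.19 against ATRi (adjusted p = 0.365). With the mitochondrial share as a covariate it passed, at 0.54 ± 0.14 against DMSO (adjusted p = 0.0106), 0.52 ± 0.14 against 5-Ph-IAA (0.0162) and 0.47 ± 0.14 against ATRi (0.0345). That fit called 3183 genes higher and 3266 lower against DMSO, where the fit without the covariate called 1126 and 1244. The calls of that fit over all genes in the other comparisons are not given here.

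In the small subunit, RPS6, the substrate of S6 kinase downstream of mTORC1, was measured at 1893, 2875 and 1508 CPM in DMSO, 2266, 2246 and 1360.2 CPM in 5-Ph-IAA, 2669, 2171 and 1769 CPM in ATRi and 1950.5, 2379 and 1579 CPM in the combination, which gave -0.09 ± 0.28 (adjusted p = 0.888). Set 3 was again lowest in every group. RPS27A, made as a fusion with ubiquitin, was measured at 869, 751 and 707 CPM in DMSO, 671, 949.98 and 711 CPM in 5-Ph-IAA, 749, 739.5 and 796 CPM in ATRi and 802, 978 and 775 CPM in the combination, and its change was 0.13 ± 0.16. The groups overlapped for both genes, and RPS27A was highest in combination 2 and lowest in 5-Ph-IAA 1.

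RPS19, of the small-subunit head and a gene mutated in Diamond-Blackfan anaemia, had the highest change of all 77 genes. It was measured at 914, 1285 and 716 CPM in DMSO, 1300.1, 1155 and 690.3 CPM in 5-Ph-IAA, 1399.7, 1017 and 925 CPM in ATRi and 1263, 1633 and 1004 CPM in the combination. Combination 2 was its highest library, but combination 3 lay inside the DMSO range, and the change of 0.42 ± 0.29 had a 95% interval of -0.21 to 1.05 (adjusted p = 0.398). RPS26, at the mRNA exit, was measured at 319.9, 409 and 291 CPM in DMSO, 421, 348 and 293 CPM in 5-Ph-IAA, 469, 334 and 348 CPM in ATRi and 426, 523 and 348 CPM in the combination (0.35 ± 0.21). RPS12, in the head, was measured at 1034, 1095 and 785 CPM in DMSO, 974, 1160.4 and 807 CPM in 5-Ph-IAA, 1112, 1019 and 972 CPM in ATRi and 1150.3, 1412 and 956 CPM in the combination (0.27 ± 0.19). In these 3 genes set 2 was highest in the combination, all groups overlapped, and the adjusted p was 0.321 for RPS26 and 0.403 for RPS12. The 7 head genes had a median change of 0.14 (-0.04 to 0.42) and the 10 anaemia genes one of 0.06 (-0.19 to 0.42), with 0 passing in either.

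RPS7, another anaemia gene, had the lowest change. It was measured at 795, 1234 and 669 CPM in DMSO, 1082, 967 and 625 CPM in 5-Ph-IAA, 1117, 829 and 709.8 CPM in ATRi and 803, 923 and 633 CPM in the combination, with overlapping groups and set 3 lowest throughout. The change was -0.19 ± 0.28 (95% interval -0.80 to 0.41, adjusted p = 0.717). With the mitochondrial share as a covariate it was called lower, at -0.40 ± 0.13 against DMSO (adjusted p = 0.0309) and -0.37 ± 0.13 against 5-Ph-IAA (adjusted p = 0.0469). As given with RPL21, that fit also called more of all genes against DMSO than the main fit.

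RPSA, at the mRNA exit and also known as the laminin receptor, was the steadiest gene within groups. By CPM, it was the 1 gene of the family whose levels in the combination lay apart from all 9 other libraries. It was measured at 1674, 1587 and 1674 CPM in DMSO, 1647, 1867 and 1644 CPM in 5-Ph-IAA, 1807, 1655 and 1849 CPM in ATRi and 1404, 1538 and 1372 CPM in the combination. The highest combination library was below the lowest of any other group. The share of all genes set apart in this way was not counted. The change was -0.19 ± 0.12 against DMSO (adjusted p = 0.322), -0.26 ± 0.12 against 5-Ph-IAA (0.215) and -0.30 ± 0.12 against ATRi (0.209) by edgeR, none of which passed. DESeq2 called it lower against 5-Ph-IAA (-0.26 ± 0.09, adjusted p = 0.0305) and against ATRi (-0.30 ± 0.09, adjusted p = 0.0156). The share of all genes that DESeq2 called is not given here. By edgeR it was 9.41% and 3.51% in these comparisons. Relative to the mean of the ribosomal protein genes in the same library, RPSA in the combination overlapped every other group. On that scale it lay at 0.63, 0.48 and 0.81 log2 in the combination and at 0.96, 0.54 and 1.22 in DMSO.

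By CPM, groups that did not overlap were few. Against DMSO 3.90% of the 77 did not overlap in the combination, RPL21 (higher) and RPSA (lower) among them, where 32.3% of all genes did not. Against 5-Ph-IAA it had RPSA alone (27.6% of all genes), and against ATRi it had RPS27 higher and RPSA lower (26.9% of all genes). ATRi against DMSO had RPS10 and RPL41, both higher (8.8% of all genes), and 5-Ph-IAA against DMSO had none (3.37% of all genes). RPS10 and RPL41 are named here because they were seen not to overlap.

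RPS27L, a paralogue of RPS27, rose in the combination while RPS27 did not pass the test. RPS27, a zinc-finger protein of the small subunit, was measured at 527, 596 and 464 CPM in DMSO, 456, 681 and 457 CPM in 5-Ph-IAA, 553, 559 and 537 CPM in ATRi and 572, 776 and 581 CPM in the combination, and its change was 0.28 ± 0.18 (95% interval -0.12 to 0.69, adjusted p = 0.37). RPS27L, which can replace it in the ribosome and is a known p53 target, was measured at 90.9, 143 and 69.5 CPM in DMSO, 184, 146 and 112 CPM in 5-Ph-IAA, 243, 180.3 and 143 CPM in ATRi and 318, 339 and 276 CPM in the combination. Every combination library was above every other library, and DMSO was lowest on average but overlapped both single treatments. RPS27L rose in the combination against DMSO by 1.62 ± 0.28 (adjusted p = 0.00352) and against 5-Ph-IAA by 1.08 ± 0.28 (adjusted p = 0.0327). Against ATRi the difference was 0.72 ± 0.28 (adjusted p = 0.203), and ATRi alone gave 0.90 ± 0.28 against DMSO (adjusted p = 0.607). The interaction was 0.17 ± 0.39 (adjusted p = 0.999). The call against 5-Ph-IAA was lost without 5-Ph-IAA 2 or 3 or without any 1 combination library (adjusted p up to 0.105), and the call against DMSO was kept without each library of either group (adjusted p up to 0.0226).

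**Figure D4:**
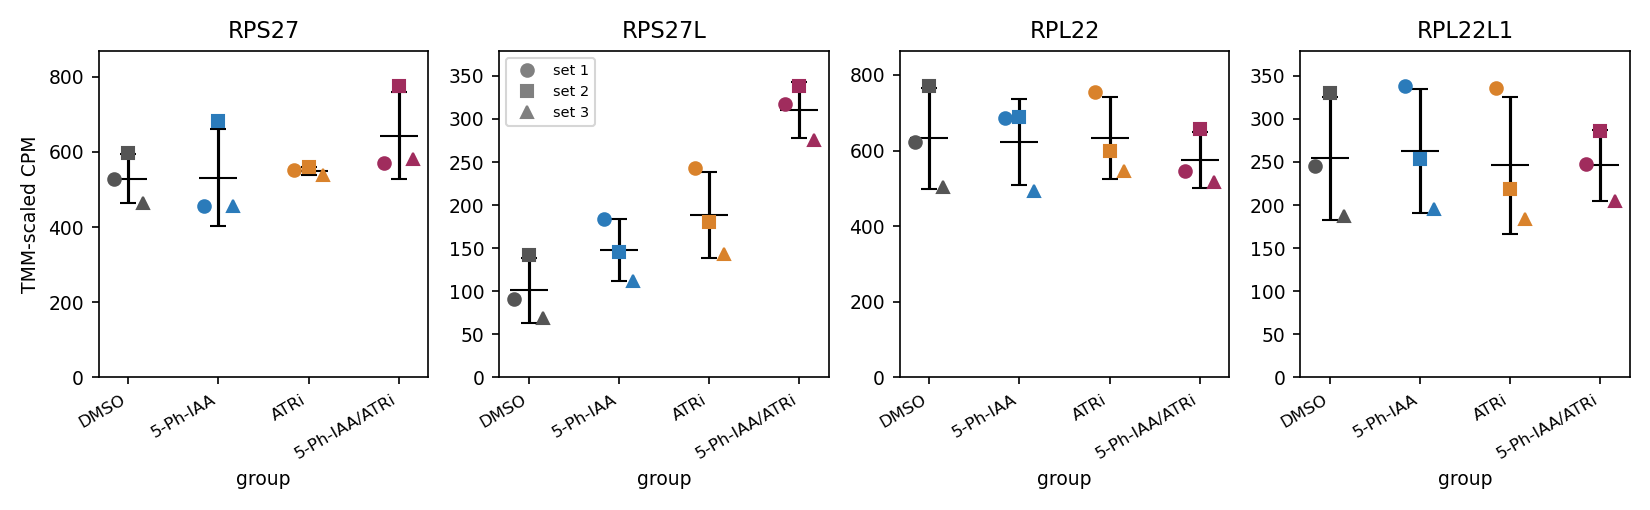
Level (TMM-scaled CPM) of RPS27 and RPL22 and of their paralogues RPS27L and RPL22L1 in each library, by group, with symbols for sets 1 to 3 and the mean ± SD (n = 3) as lines. The 3 combination libraries of RPS27L, between 275.5 and 339 CPM, lie above all others. RPS27 in the combination lies above ATRi but overlaps DMSO and 5-Ph-IAA, and the groups of RPL22 and RPL22L1 overlap.

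RPL22L1, the paralogue of RPL22, was measured at 245, 329.5 and 188 CPM in DMSO, 338, 254 and 196 CPM in 5-Ph-IAA, 336, 218 and 184 CPM in ATRi and 248, 286 and 204 CPM in the combination, a change of -0.05 ± 0.28 in the combination (adjusted p = 0.941). Of the 8 paralogues listed, 5 were tested, and 1 of the 5 rose in the combination, RPS27L, where 6.24% of all genes rose and 6.89% fell. The median of the 5 was 0.29. FAU and RACK1, ribosomal proteins with other names, did not pass. FAU, which encodes eS30 fused to a ubiquitin-like protein, was measured at 285, 394 and 239 CPM in DMSO, 403, 314 and 229.9 CPM in 5-Ph-IAA, 394, 279.9 and 277 CPM in ATRi and 334, 405 and 283 CPM in the combination (0.15 ± 0.25). RACK1, a scaffold on the small-subunit head, was measured at 1266, 1509 and 1176 CPM in DMSO, 1419.9, 1496 and 1144 CPM in 5-Ph-IAA, 1544, 1396 and 1322 CPM in ATRi and 1291, 1378 and 1152 CPM in the combination (-0.05 ± 0.15). In both the groups overlapped.

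The genes that share the TOP motif or the ribosome with the 77 were read against the same background, in the combination against DMSO. Of 7 elongation factor genes 0 passed (median 0.13). EEF1A1, which brings tRNA to the ribosome, was measured at 14543, 15739.6 and 13319 CPM in DMSO, 11922, 17041 and 13442 CPM in 5-Ph-IAA, 14218, 16589 and 15492 CPM in ATRi and 14102, 16463 and 14351 CPM in the combination (0.04 ± 0.16). EEF2, which moves the ribosome along, was measured at 2149, 1905 and 2542 CPM in DMSO, 1793, 2386 and 2515 CPM in 5-Ph-IAA, 1881, 2397 and 2730.5 CPM in ATRi and 2231, 2312 and 2687 CPM in the combination (0.13 ± 0.19). Neither gene's groups separated. Of 28 initiation factor genes 1 rose, EIF3G (median of the list 0.11), and of 7 other TOP mRNAs 1 fell, HNRNPA1 (median -0.08). EIF3G, a subunit of eIF3, was measured at 124, 116 and 119 CPM in DMSO, 139, 138 and 125 CPM in 5-Ph-IAA, 139, 125 and 134 CPM in ATRi and 169.8, 184 and 176 CPM in the combination, a rise of 0.56 ± 0.10 (adjusted p = 0.00388). HNRNPA1, a splicing regulator, was measured at 1828, 1795 and 1853 CPM in DMSO, 1913, 1727 and 1702 CPM in 5-Ph-IAA, 1960.03, 1622 and 1789 CPM in ATRi and 1278, 1338 and 1259.9 CPM in the combination, a fall of 0.50 ± 0.12 log2 (adjusted p = 0.017). For both, the combination stood apart from all other libraries. The call of EIF3G was kept without each library of either group (adjusted p up to 0.0213), and that of HNRNPA1 was lost without DMSO 1, combination 1 or combination 3 (adjusted p up to 0.0677). Against 5-Ph-IAA HNRNPA1 fell too, 1 of the 7, at -0.46 ± 0.12 (adjusted p = 0.0308), where 5.04% of all genes fell. TPT1, another TOP mRNA, was measured at 2372, 3106 and 1759.8 CPM in DMSO, 2567, 2649.9 and 1777 CPM in 5-Ph-IAA, 2750.1, 2393 and 1850.2 CPM in ATRi and 2461, 3010.2 and 2071 CPM in the combination (0.06 ± 0.24), and among 14 snoRNA hosts without a protein, 0 of which passed (median 0.08), GAS5 was measured at 338, 678 and 249.7 CPM in DMSO, 426, 481 and 251 CPM in 5-Ph-IAA, 469, 383 and 284 CPM in ATRi and 407, 407 and 293 CPM in the combination (-0.19 ± 0.35).

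Among genes that build the ribosome, some passed the test. Of 37 assembly factor genes 6 rose and 0 fell in the combination against DMSO (median 0.21), where 6.24% of all genes rose and 6.89% fell: NOP16, RRP12, PES1, BYSL, SBDS and EIF6. SBDS, which helps to release EIF6 from the new large subunit, was measured at 59.8, 71.4 and 52.9 CPM in DMSO, 53.3, 67.8 and 57.4 CPM in 5-Ph-IAA, 62.1, 68.8 and 62.5 CPM in ATRi and 90.2, 106 and 106 CPM in the combination, a rise of 0.71 ± 0.14 (adjusted p = 0.00686). RRP12, an export and processing factor, was measured at 69.8, 76.8 and 66.9 CPM in DMSO, 72.7, 83.7 and 65.6 CPM in 5-Ph-IAA, 76.9, 74 and 79.7 CPM in ATRi and 104, 97.2 and 118 CPM in the combination (0.58 ± 0.12, adjusted p = 0.0101). EIF6, which keeps the subunits apart, rose by 0.47 ± 0.11 (adjusted p = 0.0184), and BYSL, a small-subunit factor, by 0.65 ± 0.18 (adjusted p = 0.033). In SBDS and RRP12 no combination library overlapped another group. The call of SBDS was kept without each library of either group (adjusted p up to 0.0367), that of RRP12 was lost without combination 3 (adjusted p = 0.0509), and the others were kept in 1 of 6 such fits, without DMSO 2 for EIF6 and NOP16 and without DMSO 3 for BYSL and PES1 (adjusted p up to 0.164 in the rest). Against 5-Ph-IAA 2 of the 37 rose, RRP12 and SBDS, where 4.38% of all genes rose, and against ATRi 1 rose, SBDS, where 1.63% did. Of 14 RNA polymerase I genes 1 rose (POLR1C, 0.50 ± 0.12, adjusted p = 0.022; list median 0.10), and of 9 chaperones of ribosomal proteins 1 rose (HEATR3, which imports RPL5, 0.57 ± 0.16, adjusted p = 0.0391; median 0.17). Of the 6 fits without a library, the call of POLR1C was kept only without DMSO 2 and that of HEATR3 only without DMSO 3 (adjusted p up to 0.13 in the others). The difference in frequency between these lists and the 77 genes was not tested.

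Of 17 genes of mTORC1 and MYC control 1 rose, SESN1, a p53-induced inhibitor of mTORC1, measured at 15.1, 12.7 and 16.1 CPM in DMSO, 22.5, 19.1 and 27.5 CPM in 5-Ph-IAA, 35.7, 35.6 and 35.7 CPM in ATRi and 56.4, 56.8 and 59.4 CPM in the combination (1.98 ± 0.15, adjusted p = 2.03e-05), and the list median was -0.07. MYC, which drives ribosomal protein transcription, was measured at 204, 88.6 and 237 CPM in DMSO, 119, 141 and 237 CPM in 5-Ph-IAA, 118, 196 and 252 CPM in ATRi and 225, 219 and 324 CPM in the combination, and its change of 0.54 ± 0.39 did not pass (adjusted p = 0.423), with DMSO 2 lowest and combination 3 highest. LARP1 gave -0.22 ± 0.13 and MTOR 0.01 ± 0.20, without a call. Of 78 mitochondrial ribosomal protein genes 6 rose and 0 fell (MRPL50, MRPL15, MRPS18C, MRPL36, MRPS23 and MRPS17; median 0.11). MRPL15, with the smallest adjusted p, was measured at 53.8, 52.8 and 51.6 CPM in DMSO, 55.1, 55.7 and 54.9 CPM in 5-Ph-IAA, 57.3, 52.1 and 57.8 CPM in ATRi and 68.6, 69.1 and 69.3 CPM in the combination, a rise of 0.39 ± 0.09 (adjusted p = 0.0167). Of the 6 fits without a library, the calls of MRPL15 and MRPS18C were kept only without DMSO 2, that of MRPL36 only without DMSO 3, that of MRPS17 only without combination 3, and those of MRPL50 and MRPS23 in none (adjusted p up to 0.141). That share of 78 is near the 6.24% of all genes that rose. The 15 tested genes of the mitochondrial genome had a median of 0.44 and 0 calls.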

How the data were processed

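The deposited table holds estimated counts per gene made by the authors with Salmon 1.10.1, per the submitters' processing notes, which also list STAR 2.7.9a, SAMtools 1.17, Trim Galore 0.6.7, cutadapt 3.4, FastQC 0.12.1 and genome build GRCh38.p14. Annotation release and strand setting are not stated in the sources read. RNA was poly(A)-selected and libraries were directional, per the labels' protocols. Of the values, 13.6% were not whole, and all were rounded.

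Genes were kept by filterByExpr (minimum count 10, total 15; at least 99.9% of each library), scaled by TMM and tested by edgeR 4.0.16's quasi-likelihood method with a mean for each group and all 12 libraries in 1 fit (R 4.3.3), with Benjamini-Hochberg adjustment over 18049 genes and a threshold of 0.05. The median biological coefficient of variation was 0.214. Alternatives included DESeq2 1.42.0, limma-voom (limma 3.58.1), other scalings and filters, covariates and leaving out each library. Code was tested on simulated data.

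Named members were 13 fixed genes and the 6 highest and 6 lowest changes in the combination against DMSO, apart from genes that are not reported here. The members and the gene lists were chosen with earlier results of these data known. Coding lengths and snoRNA positions are from GENCODE v29, and gene starts from RefSeq. Set numbers were counted as pairs only where all 3 sets deviated together (correlation above 0.1), which held for the combination against 5-Ph-IAA (0.37, 0.18 and 0.54). The main fit did not use the set number in any comparison, this one included. It entered only the fit with the set number as a block.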

Additional observations from a re-analysis of the deposited data

How the results depend on the processing

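The 0 of 77 calls stood in all comparisons under the other scalings and filters, unrounded counts, limma-voom and the fit of the compared groups, and from 0 to 0 without each library. The exceptions were DESeq2 and the fit with the mitochondrial share as a covariate. DESeq2 gave 1 call against 5-Ph-IAA and 1 against ATRi in the combination. The covariate gave 2 calls in the combination against DMSO, 2 against 5-Ph-IAA and 1 against ATRi. Against DMSO the covariate fit also called more of all genes than the main fit, as given with RPL21. For the other calls the share of all genes under the same fit is not given here. The cause of these exceptions was not tested. Without single libraries the median change ran from -0.11 to 0.20 in 5-Ph-IAA (without DMSO 3 and DMSO 2), from -0.07 to 0.26 in ATRi (the same libraries) and from -0.09 to 0.24 in the combination, each against DMSO, and from -0.23 to 0.11 for the interaction. It ran from -0.14 to 0.15 in the combination against 5-Ph-IAA (without 5-Ph-IAA 3 and combination 3), and from -0.16 to 0.10 against ATRi (without combination 2 and combination 3).

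With the set number as a block, 0 of 77 genes were called in each comparison (combination median 0.06 against DMSO). The paired numbers deviated together for all 3 sets only in the combination against 5-Ph-IAA, and in the other comparisons at least 1 set had a correlation between -0.09 and -0.01. The block changed 1 call of a named gene, RPS27L in the combination against ATRi (0.74, adjusted p = 0.033). The covariate also called RPS27L against ATRi (adjusted p = 0.00334) and in ATRi against DMSO (0.00232), and upper quartile scaling lost its call against 5-Ph-IAA (0.0561).

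Alternatives added after seeing the data were a fit of 8 libraries that dropped, in each group, the one richest in mitochondrial reads, where the combination median was 0.27 with 0 calls, and counts summed with pseudogene rows, where it was 0.04 with 0 calls. Without mitochondrial counts the share of the 77 genes was 8.87% in DMSO, 9.01% in 5-Ph-IAA, 9.30% in ATRi and 9.19% in the combination. Every one of the 77 genes had 6003 counts or more in every library, and their median SD within groups was 0.28 log2. The parts that depth, spread among replicates and set number had in the absence of calls were not tested.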
